A study of Sus scrofa with 2 samples.

Results

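Collagen chains were examined in RNA-seq data from the pig cochlea, as every feature whose gene name has the form COL, a number, A and a number. The rule found 42 features with 39 different names, out of 27622 features in the table. The tissue was cochlear lateral wall containing the stria vascularis (SV), the epithelium that produces the endocochlear potential. There was 1 library of genotype Mitf R/r (the heterozygote) and 1 of genotype Mitf r/r (the homozygote). The r allele was found in Rongchang pigs with hearing loss and carries short insertions upstream of the melanocyte-specific first exon of Mitf. The heterozygote was the comparison library, so the r allele was present in both. The labels give postnatal day 1 for both, whereas the study's text places the RNA-seq before birth. Whether a library came from a single animal is not stated in the sources used here.

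Collagens are trimers of chains whose helical stretches repeat a short glycine-led motif. Fibrillar collagens assemble into the cable-like fibrils of bone, cartilage and other connective tissue, and FACIT collagens (fibril-associated collagens with interrupted triple helices) coat those fibrils. Type IV collagen forms the sheet-like network of basement membranes, which in the SV surround the dense capillary bed. Mutations in chains of types II, IV, IX and XI are known causes of hereditary hearing loss.

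Levels are given as RPKM, the reads on a gene scaled to the length of its exons and to the mapped reads of the library, so that chains can be set side by side. Differences are log2 ratios of RPKM, homozygote over heterozygote, so that a negative value is lower in the homozygote. Reads behind the RPKM values were worked out from their steps, which gave totals of 15829244 reads for the heterozygote and 14258672 for the homozygote. Intervals are exact 95% Clopper-Pearson intervals on these reads and cover counting error only. They take each read as independent, although mates of a pair come from the same fragment. Neither genotype was replicated, so no difference has a replicate check and no p-value is given. Each difference is one between these libraries, not between genotypes.

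The labelled tissue was checked on its markers. Of 6 markers of spiral ligament fibrocytes and basal cells 4 were compared, with a median log2 ratio of -0.15 (range -0.47 to 0.25). COCH, a fibrocyte matrix gene, had 6826 RPKM in the heterozygote and 4914 in the homozygote. Of 6 marginal cell markers 4 were compared, with a median of -0.24 (range -0.81 to 0.10). The highest of them, ATP1B2, had 915 and 522 RPKM (-0.81, -0.85 to -0.77), and the potassium channel gene KCNE1 had 278 and 248 RPKM (-0.17). DCT, a melanocyte pigment enzyme, had 171 and 1.19 RPKM, and the 5 of 7 melanocyte and intermediate cell markers compared had a median log2 ratio of -5.11. The others did not meet the rule for comparison, which needs both values above 0 and at least 1 RPKM in one library. MLANA had 4 reads in the heterozygote and 0 in the homozygote, and TYRP1 had 1 in each. The part of these pigment cells in the collagen values was not tested. Bone transcripts were also present, and IBSP, a bone matrix protein, had 431 and 268 RPKM. The 3 MITF features, which do not separate the isoforms, had log2 ratios between -0.51 and -0.45. In bulk tissue, fewer cells of a type and less RNA per cell cannot be told apart.

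Of the 39 collagen genes, 34 were above 0 in both libraries with at least 1 RPKM in at least one of them, and these were compared. Most lay somewhat lower in the homozygote. The log2 ratio was below 0 for 26 genes (76.5%) and above 0 for 8, where 53.3% of the 16331 features compared in the same way were below 0. The median over the collagens was -0.18, and the median over all features was -0.02. The interval lay wholly below 0 for 19 collagens (55.9%), against 14.5% of all features, and wholly above 0 for 3, against 11.2%. It included 0 for the other 12. Such intervals are narrower for collagens, since a compared collagen had 3256 reads at the median and a compared feature 449. The number below 0 was 25 when the libraries were scaled to equal medians, where COL8A1 moved to 0.00, and 27 when scaled to TPM, where COL4A4 moved to -0.03.

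Large differences were few. By 2-fold or more, 2 collagens (5.88%), COL1A1 and COL17A1, were lower in the homozygote, against 2.2% of all features. The interval lay wholly beyond 2-fold for COL17A1 alone, against 0.649% of all features. It ended at -1.002, so the shift of 0.02 from scaling by the median would bring it inside 2-fold. The interval of COL1A1 ended at -0.92, but its true reads may be a multiple of those found, which would make it narrower. No collagen was 2-fold or more higher, against 1.78%. At 1.5-fold, 6 collagens were lower (17.6%), namely COL1A1, COL1A2, COL5A3, COL6A3, COL17A1 and COL22A1, against 6.31% of all features. A single one, COL18A1, was higher (2.94%), against 4.53%. The whole interval lay beyond 1.5-fold on the lower side for 4 collagens, COL1A1, COL1A2, COL17A1 and COL22A1, against 0.998% of all features, and on the higher side for 0, against 0.784%. That of COL1A2 ended at -0.586, which scaling by the median would bring inside 1.5-fold. Of the 24 collagens with at least 10 RPKM, 3 were 1.5-fold lower and 1 higher, against 1.98% and 1.36% of features at that level. Of the 7 with at least 100 RPKM, COL1A2 alone was 1.5-fold lower and 0 were higher, against 1.84% and 2.05%.

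**Figure D1:**
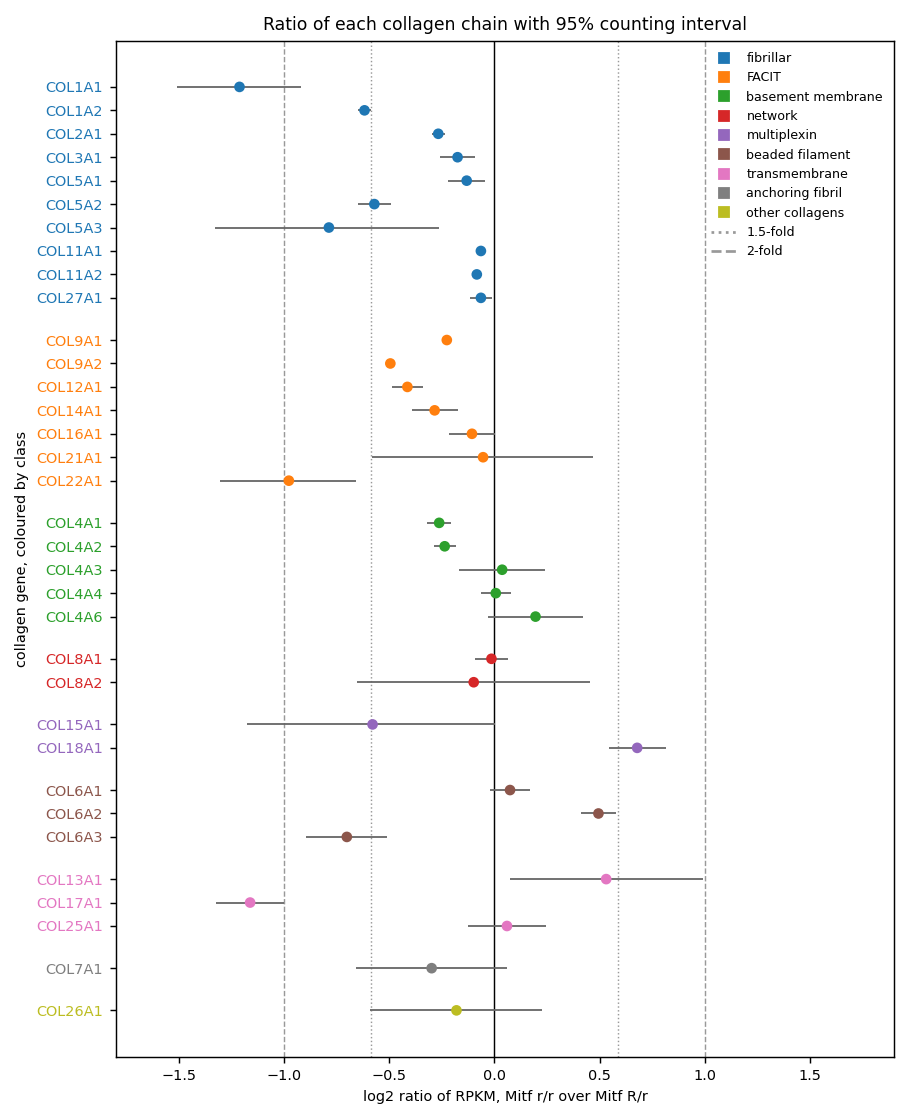
Log2 ratio of RPKM, Mitf r/r over Mitf R/r, for each of the 34 collagen genes compared, ordered and coloured by class. Points are ratios from 1 library per genotype, bars are 95% counting intervals, and dotted and dashed lines mark 1.5-fold and 2-fold; all fibrillar and FACIT points lie left of 0, while COL18A1 and COL6A2 lie to the right.

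The collagens differed widely in level, and the chains typical of cartilage were far above the rest. COL11A2, a chain of type XI that sets the diameter of cartilage fibrils, had 2825 RPKM in the heterozygote and 2666 in the homozygote, the 12th and the 13th highest of all features. COL9A2 had 1776 and 1261 RPKM, COL2A1 had 1773 and 1474, and COL9A1 had 1684 and 1440. The reads of COL2A1 fit an exon model of 683 bases or a multiple of it, so its level may rest on part of the gene. These 4 chains held 81.2% of all collagen RPKM in the heterozygote and 80.7% in the homozygote. They are 4 of the 63 features with at least 1000 RPKM in at least one library. Below them stood COL11A1 at 507 and 485 RPKM, COL1A2 at 277 and 180, and COL8A1 at 141 and 140. The other compared collagens were under 100 RPKM, and 10 of them under 10. Summed over its features, collagen made up 1.65% of all RPKM in the heterozygote and 1.38% in the homozygote, or 3.07% and 2.65% of the reads on features.

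**Figure D2:**
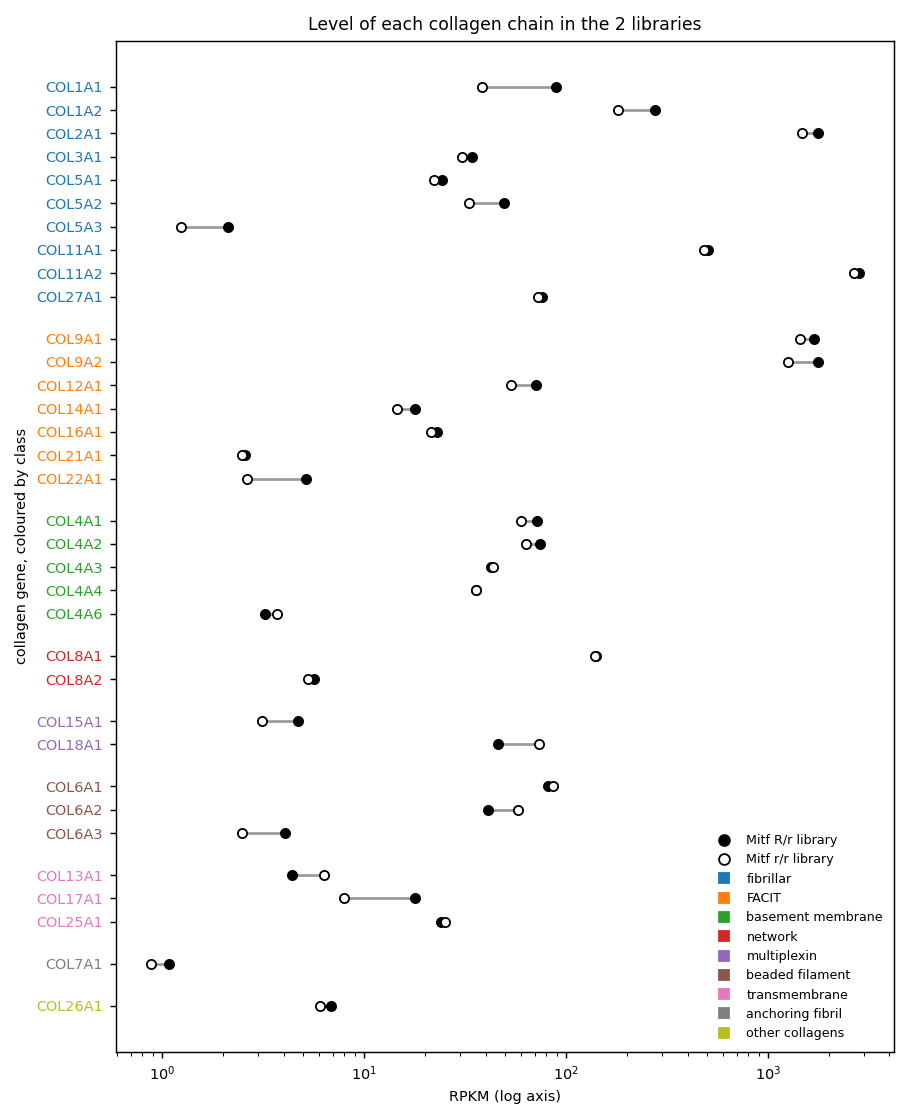
RPKM of the 34 collagen genes on a log axis, with filled circles for the Mitf R/r library and open circles for the Mitf r/r library, ordered and coloured by class. COL11A2, COL2A1, COL9A1 and COL9A2 stand above 1000 RPKM in both libraries, and COL1A1, COL17A1 and COL22A1 show the widest gaps.

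All 10 fibrillar collagens compared were lower in the homozygote, with intervals wholly below 0, but by very unequal amounts. Of all features, 53.3% were below 0 and 14.5% had intervals wholly below 0. Their median log2 ratio was -0.22, with a range from -1.21 to -0.06.
Type I collagen, the main protein of bone and tendon, differed most. COL1A1, its alpha1 chain, had 89.1 RPKM in the heterozygote and 38.5 in the homozygote, from 347 and 135 reads. This was 2.32-fold lower (log2 ratio -1.21, 95% interval -1.51 to -0.92). Among the 7902 features with at least as many reads, 0.190% had a lower ratio. The reads fit an exon model of only 246 bases or a multiple of it, so the value of COL1A1 may rest on a small part of the gene. COL1A2, the alpha2 chain, had 277 and 180 RPKM from 22307 and 13098 reads, a log2 ratio of -0.62 (-0.65 to -0.59). Both chains were thus lower, COL1A1 by more. A further feature named COL1A2 had 0.633 and 0.422 RPKM, under the minimum.

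Type V collagen nucleates type I fibrils, and its chains also differed unequally. COL5A2 had 49.5 RPKM in the heterozygote and 33.3 in the homozygote (log2 ratio -0.57, -0.65 to -0.49). COL5A1 had 24.4 and 22.3 RPKM (-0.13, -0.22 to -0.04). The minor chain COL5A3 had 2.13 and 1.24 RPKM (-0.79, -1.33 to -0.26). The interval of COL5A1 does not overlap those of the other chains of its type. COL3A1, which accompanies type I in soft connective tissue and lies beside COL5A2 in the reference annotation, had 34.5 and 30.5 RPKM (-0.18, -0.26 to -0.09).

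Among the fibrillar chains of cartilage, COL2A1, the main cartilage collagen, had a log2 ratio of -0.27 (-0.30 to -0.24). COL11A1 was at -0.06 (-0.08 to -0.04) and COL11A2 at -0.08 (-0.09 to -0.07). COL27A1, a fibrillar chain of cartilage with 76.4 and 73.0 RPKM, was at -0.06 (-0.12 to -0.01). Other scalings shifted all genes by between -0.04 and 0.02, which is of the same order as the ratios of COL11A1, COL11A2 and COL27A1. Scaling by the median would bring the upper end of the COL27A1 interval above 0.

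The 7 FACIT collagens compared were all lower as well, with a median of -0.28. For 5 of them the interval lay wholly below 0, against 14.5% of all features. COL22A1, a chain found at tissue junctions such as that of muscle and tendon, had 5.19 RPKM in the heterozygote and 2.64 in the homozygote from 260 and 119 reads. Its log2 ratio of -0.98 (-1.30 to -0.66) was just short of 2-fold. COL9A2, a type IX chain that decorates type II fibrils, was at -0.49 (-0.51 to -0.48), and its partner COL9A1 was at -0.23 (-0.24 to -0.21). COL12A1, which binds type I fibrils, had 71.2 and 53.5 RPKM (-0.41, -0.49 to -0.34). Its other feature had 70.6 and 49.4 RPKM (-0.52, -0.84 to -0.19), so both features of this gene gave similar levels and ratios. COL14A1, also bound to type I fibrils, had 17.9 and 14.7 RPKM (-0.28, -0.39 to -0.18). COL16A1 had 23 and 21.4 RPKM (-0.11, -0.21 to 0.00), and COL21A1 had 2.58 and 2.48 RPKM (-0.05, -0.58 to 0.47). COL19A1 stayed under 1 RPKM, with 0.643 and 0.206 RPKM from 38 and 11 reads.

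The basement membrane collagens differed among themselves. COL4A1 and COL4A2, whose chains form the type IV network of nearly all basement membranes, had 71.7 and 74.7 RPKM in the heterozygote and 59.8 and 63.4 RPKM in the homozygote. Their log2 ratios were alike, -0.26 (-0.32 to -0.20) and -0.24 (-0.29 to -0.18). COL4A3 and COL4A4, chains of the network whose loss causes Alport syndrome with deafness, were near equal. COL4A3 had 42.4 and 43.4 RPKM (0.04, -0.17 to 0.24) and COL4A4 had 35.8 and 36.0 RPKM (0.01, -0.07 to 0.08). COL4A6 had 3.23 and 3.70 RPKM (0.20, -0.03 to 0.42). The intervals of COL4A1 and COL4A2 lie wholly below that of COL4A4. COL4A1 overlaps COL4A2, and COL4A3 overlaps COL4A4, in the reference annotation of a later assembly (Sscrofa11.1), and the library kit named in the study does not mark strand, so reads in a shared stretch cannot be assigned.
A feature with 24.2 and 25.2 RPKM (0.06, -0.13 to 0.25), ENSSSCG00000012572, is called COL25A1 in the deposited table and COL4A5 in the Ensembl name table. COL4A5 is the third chain of the COL4A3 and COL4A4 network and lies beside COL4A6 in the reference annotation, whereas COL25A1 encodes a transmembrane collagen. The deposited name was kept. The median of the 5 basement membrane collagens was 0.01. It was -0.12 with a minimum of 5 RPKM, which leaves out COL4A6, and -0.14 from their summed RPKM.

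The network collagens of type VIII, made by endothelial and mesenchymal cells, were near equal in both libraries. COL8A1 was at -0.01 (-0.09 to 0.06), and COL8A2, with 5.64 and 5.26 RPKM, was at -0.10 (-0.65 to 0.45). COL10A1, the collagen of hypertrophic cartilage, was almost unread, with 0.178 and 0.264 RPKM from 6 and 8 reads.

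The collagens that were higher in the homozygote lay outside the fibrillar and FACIT classes. COL18A1, a proteoglycan collagen of basement membranes and the source of endostatin, had 46.0 RPKM in the heterozygote and 73.6 in the homozygote, from 748 and 1078 reads. It was 1.60-fold higher (log2 ratio 0.68, 0.54 to 0.81), and among the 3248 features with at least as many reads 0.616% had a higher ratio. COL15A1, the other multiplexin, was lower, at 4.70 and 3.15 RPKM, but its interval just included 0 (-0.58, -1.18 to 0.00). A further COL15A1 feature had 4.03 and 3.56 RPKM (-0.18, -0.79 to 0.43).

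Type VI collagen, which forms beaded filaments around cells, had chains that differed in direction. COL6A2 was higher in the homozygote, with 41.0 and 57.7 RPKM (0.49, 0.41 to 0.58). COL6A1 had 81.7 and 86.0 RPKM (0.07, -0.02 to 0.17). COL6A3, the large chain needed for assembly, was lower, with 4.05 and 2.49 RPKM from 630 and 349 reads (-0.70, -0.89 to -0.51). The 3 intervals do not overlap. COL6A5 was listed at 0 in both libraries.

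Among transmembrane collagens, COL17A1, the hemidesmosome collagen that anchors epithelial cells to their basement membrane, had 17.9 RPKM in the heterozygote and 7.98 in the homozygote, from 1117 and 450 reads. It was 2.24-fold lower (log2 ratio -1.16, -1.32 to -1.002), and among the 3757 features with at least as many reads 0.106% had a lower ratio. COL13A1 had 4.38 and 6.33 RPKM (0.53, 0.08 to 0.99). COL23A1 had 0.362 RPKM from 8 reads in the heterozygote while the homozygote had 0 reads, where 3 reads, the limit a count of 0 allows, would be 0.151 RPKM. COL7A1, which builds anchoring fibrils beneath epithelia, had 1.09 and 0.882 RPKM (-0.30, -0.66 to 0.06). COL26A1 had 6.89 and 6.08 RPKM (-0.18, -0.59 to 0.22), and COL28A1 had 1 and 2 reads. COL6A4, COL6A6, COL9A3, COL20A1 and COL24A1 were not analysed here.

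Because chains of a type can share a trimer, their RPKM ratio was taken within each library for 11 pairs. The interval of the ratio in the heterozygote did not overlap that in the homozygote for 6 pairs. COL6A3 to COL6A2 differed most, at 0.0989 (95% interval 0.0903 to 0.108) in the heterozygote and 0.0432 (0.0385 to 0.0483) in the homozygote. COL6A1 to COL6A2 was 1.99 (1.87 to 2.12) and 1.49 (1.40 to 1.58). COL1A1 to COL1A2 was 0.322 (0.289 to 0.358) and 0.213 (0.179 to 0.253), with the short model of COL1A1 in both. In these 3 pairs the ratio was lower in the homozygote.
COL5A1 to COL5A2 was higher in the homozygote, at 0.668 (0.627 to 0.712) against 0.493 (0.467 to 0.520). COL9A1 to COL9A2 was 0.948 (0.939 to 0.958) in the heterozygote and 1.14 (1.13 to 1.16) in the homozygote. COL4A4 to COL4A1, which sets the chains of the different type IV networks against each other, was 0.50 (0.479 to 0.522) and 0.602 (0.575 to 0.632). The other 5 pairs had overlapping intervals, among them COL11A1 to COL11A2 at 0.179 and 0.182 and COL4A1 to COL4A2 at 0.960 and 0.942. A ratio of RPKM depends on both exon models, so its level is less firm than its difference between libraries.

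**Figure D3:**
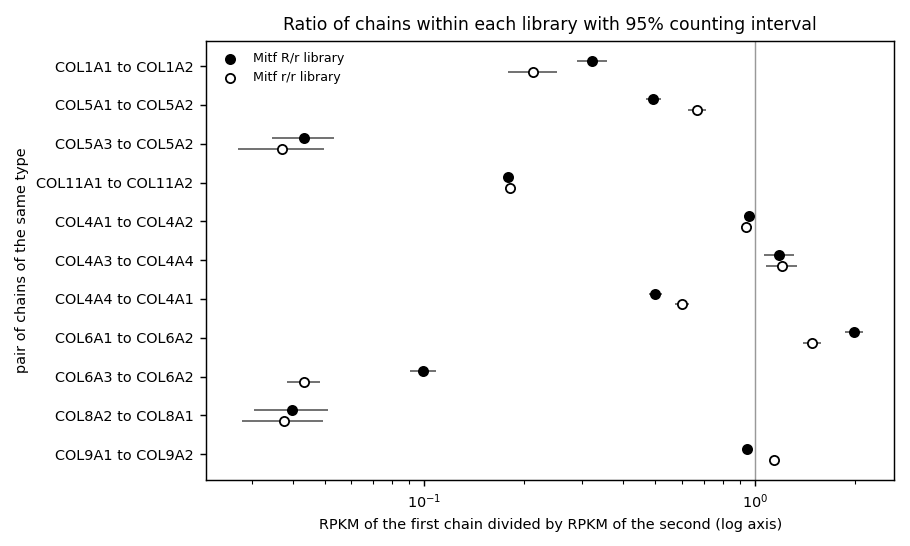
RPKM of one chain divided by that of another chain of the same collagen type (log axis), within the Mitf R/r library (filled) and the Mitf r/r library (open), with 95% counting intervals, for all 11 pairs. Intervals overlap for 5 pairs (COL5A3 to COL5A2, COL11A1 to COL11A2, COL4A1 to COL4A2, COL4A3 to COL4A4 and COL8A2 to COL8A1) and do not for the other 6, which are those of types I, VI and IX, COL5A1 to COL5A2 and COL4A4 to COL4A1.

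Grouped by tissue rather than by structure, the collagens of bone and connective tissue (COL1A1, COL1A2, COL3A1, COL5A1, COL5A2 and COL12A1) had a median log2 ratio of -0.49. The 6 compared cartilage collagens (COL2A1, COL9A1, COL9A2, COL11A1, COL11A2 and COL27A1) had a median of -0.16. All 12 were below 0 with intervals wholly below 0, against 53.3% and 14.5% of all features. The ranges overlapped, from -1.21 to -0.13 and from -0.49 to -0.06. Summed RPKM was 545 and 358 for the bone and connective tissue group, and 8643 and 7398 for the cartilage group.
Markers of osteoblasts and osteocytes, a list chosen with earlier results of these data known, were also lower. All 8 of 8 were below 0, against 53.3% of all features, and none was at 0. Their median log2 ratio was -0.70, and summed RPKM was 605 in the heterozygote and 370 in the homozygote. BGLAP (osteocalcin) had 48.9 and 29.9 RPKM, and DMP1, an osteocyte matrix protein, had 59.99 and 27.9. The part of bone in the collagen differences was not tested.
Chondrocyte markers differed in direction among themselves. Of 9 genes 5 were compared, with a median of 0.12 and summed RPKM over 7 of them of 2903 and 3880. EPYC and LECT1, matrix proteins of cartilage, had the highest levels and were higher in the homozygote (0.41 and 0.43). ACAN, the aggregating proteoglycan of cartilage, had only 8.47 and 5.56 RPKM (-0.61). HAPLN1 was at 0.12 and MATN3 at -0.55 (-1.27 to 0.15). MATN1 and COMP, abundant in mature cartilage, had 0.0424 and 0.0257 RPKM in the heterozygote and 0.329 and 0.257 in the homozygote. These rest on 1 and 7 reads for MATN1 and 1 and 9 for COMP, and neither was compared. The part of chondrocytes in the collagen values was not tested.
For the vascular basement membrane, the 6 endothelial markers compared of 8 had a median of -0.03 and summed RPKM of 228 and 220, and none was at 0. VWF had the lowest log2 ratio, with 10.7 and 6.49 RPKM (-0.73).

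Most genes that make, process or bind collagen differed by less than 1.5-fold between the libraries, as did most of all features. Of 51 compared in 6 lists, 4 (7.8%) were at least 1.5-fold lower, beside 6.31% of all features. At least 1.5-fold higher was 1, beside 4.53% of all features. None was 2-fold apart, beside 2.2% of all features lower and 1.78% higher. In each list more genes lay below 0 than above, where 53.3% of all features were below 0. The numbers below 0, in the order of the lists that follow, were 11 of 13, 5 of 8, 4 of 6, 3 of 4, 4 of 7 and 10 of 13. The 13 genes of prolyl and lysyl modification had a median of -0.09. P4HA3, a prolyl hydroxylase subunit with 146 and 143 RPKM, was the highest of them. The folding and export list (8 genes) had a median of -0.03. SERPINH1, the procollagen chaperone HSP47, had 667 and 662 RPKM (-0.01, -0.06 to 0.04).
Procollagen cleavage (6 genes) had a median of -0.14, with PCOLCE2, an enhancer of the C-proteinase, highest at 50.1 and 50.9 RPKM. Crosslinking (4 genes) had the lowest median, -0.46, but it was split. LOXL2 had 4.59 and 2.61 RPKM from 45 and 23 reads (-0.82, -1.61 to -0.06) and LOXL4 had 1.33 and 0.748 RPKM, while LOXL1, the highest, had 27.8 and 26.1 RPKM and LOX had 14.1 and 16.1 RPKM. Collagen receptors (7 genes) had a median of -0.05, with ITGB1 highest at 364 and 342 RPKM. ITGA1, the integrin chain that prefers type IV collagen, had 12.5 and 17.9 RPKM (0.52, 0.35 to 0.69).
The 13 other basement membrane genes had a median of -0.16. NID1, which links laminin to type IV collagen, had 161 RPKM in the heterozygote and 100.02 in the homozygote (-0.68, -0.77 to -0.60). LAMB3, a laminin chain of hemidesmosomes like COL17A1, had 9.98 and 5.97 RPKM (-0.74, -0.97 to -0.51).

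**Figure D4:**
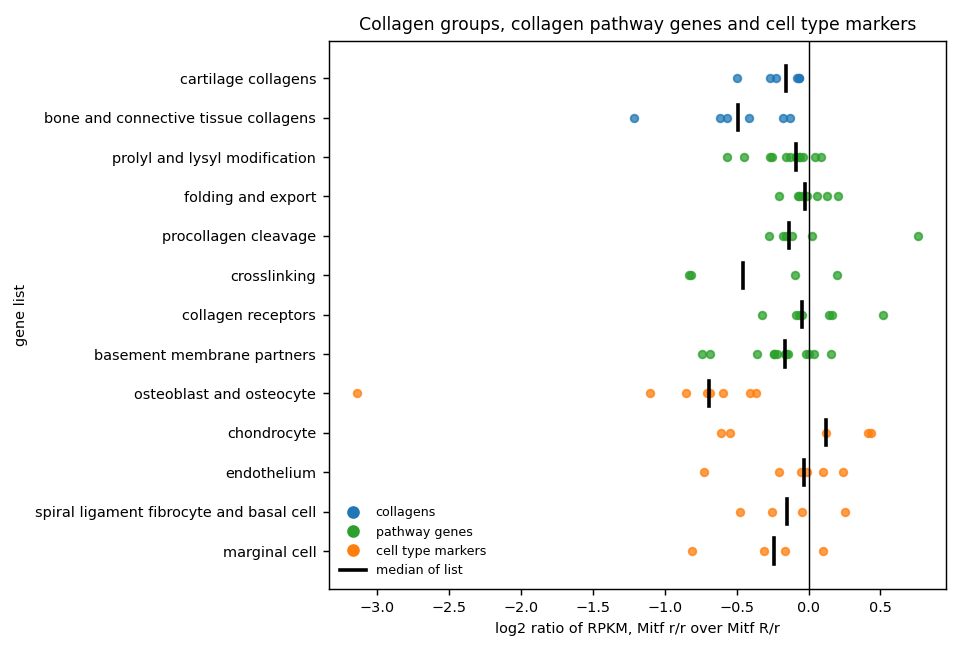
Log2 ratio of RPKM, Mitf r/r over Mitf R/r, of each compared gene in the cartilage and the bone and connective tissue collagens (blue), the 6 lists of collagen pathway genes (green) and 5 lists of cell type markers (orange), with black bars at the list medians. Of the lists drawn, the osteoblast and osteocyte list (-0.70) and the bone and connective tissue collagens (-0.49) lie farthest left, together with crosslinking (-0.46).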

How the data were processed

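RNA of the cochlear lateral wall with SV was sequenced in 1 Mitf R/r and 1 Mitf r/r library. After quality filtering by the authors, paired reads were mapped with TopHat2 2.0.7 to Sscrofa10.2 (submitters' processing notes), and the RPKM values per gene that they deposited were used. The counting program and annotation are not given in the sources used here. The table's 2 unnamed columns hold the authors' difference and ratio for 22 features and were not used. Names came from the table (35 collagen features) or an Ensembl name table (7). Of features sharing a name, the one with the highest mean RPKM stands for the gene. Log2 ratios had no pseudocount and needed both values above 0 and at least 1 RPKM in one library. Reads are the smallest whole numbers on a whole exon length that give both RPKM values, so true reads may be a multiple. Where they are, the interval is wider than the true reads would give. Reads were found for all 20862 features above 0, and 89.3% of each library total lay on features. On simulated data the totals were recovered and 96.8% of intervals held the true ratio over 19835 features. Reads were exact for 78.2% of these and exact up to a common factor for 100%. The simulation drew independent reads from the totals found here and exon lengths based on those found here, so it does not check those inputs. A single read on 1 kb is worth 0.0632 RPKM (R/r) and 0.0701 RPKM (r/r). Collagens with at least 10 RPKM, those 2-fold apart and the chains of types IV, IX and XI were to be named, with list members at least 1.5-fold apart and at least 5 RPKM and the highest of each list; others are named to account for every collagen or as markers. Some marker list members that met this rule, such as PHEX, are not named above. Members and lists were chosen with earlier results of these data known. Scripts ran on Python 3.11.15 with scipy 1.17.1, pandas 2.3.3, matplotlib 3.10.9 and numpy 2.4.6.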

Additional observations from a re-analysis of the deposited data

How the results depend on the processing

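No paired analysis was possible because each genotype had a single library. Pseudocounts of 0.1 and 1 RPKM, minimums of 0, 5 and 10 RPKM, 3 scalings and counting all features of a gene were tried. Of 170 values for the 34 single collagens under pseudocounts and scalings, 161 stayed within their counting interval, 9 moved beyond it (in the high chains COL1A2, COL2A1, COL9A1, COL9A2, COL11A1 and COL11A2) and 0 reversed a direction whose interval lay off 0. The scalings shifted all genes by 0.02 (median), 0.01 (upper quartile) and -0.04 (TPM). Summing RPKM within a class, renaming ENSSSCG00000012572 as COL4A5 and requiring the whole interval beyond the fold were chosen after seeing the data. Minimums change by construction which genes are counted; for the other settings the cause was not tested.

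The median of the cartilage collagens, -0.16, became -0.14 under scaling by the median, -0.19 under TPM, -0.084 with no minimum and -0.22 from summed RPKM. That of the bone and connective tissue collagens was -0.61 from summed RPKM. The multiplexin median (0.05) became 0.68 with minimums of 5 and 10, where COL18A1 alone was left, 0.60 from summed RPKM and -0.18 with all features of a gene. The basement membrane median (0.01) turned to -0.12 with minimums of 5 and 10, -0.14 from summed RPKM and -0.03 under TPM. The beaded filament median (0.07) became 0.28 with minimums of 5 and 10 and 0.21 from summed RPKM. The transmembrane median (0.06) became -0.55 with a minimum of 10, -0.24 from summed RPKM and -0.32 with the renamed feature. The crosslinking median became 0.052 with minimums of 5 and 10.

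Collagens at least 2-fold lower numbered 1 with the whole interval beyond the fold, 3 with no minimum (adding COL19A1) and 3 under TPM (adding COL22A1). Counts of whole intervals were taken without rescaling, and those for COL17A1 (2-fold) and COL1A2 (1.5-fold) would not hold under scaling by the median. With no minimum, 1 was 2-fold higher, COL28A1, from 1 and 2 reads. At 1.5-fold, 3 were lower with a minimum of 10 and 4 at a minimum of 5, with a pseudocount of 1 (without COL5A3 and COL6A3) or with the whole interval beyond the fold. The number lower was 7 with no minimum and 8 under TPM, while 2 were higher with no minimum and 0 with the whole interval beyond the fold. Pathway genes 2-fold lower numbered 1 with no minimum. At 1.5-fold, 2 and 1 were lower with minimums of 5 and 10, and the number higher was 0 with a pseudocount of 1 or a minimum of 5 or 10, and 2 with no minimum. The collagen share of RPKM, 1.65% and 1.38%, became 1.93% and 1.61% over named features and 1.89% and 1.59% without the 10 highest features. Depth limits COL5A3, COL8A2, COL13A1, COL15A1 and COL21A1 most.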
